A study of Bos taurus with 8 samples.

Results

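Rumen fluid of cattle carries small RNA, and 6 bovine entries of miRNAs that are known from nervous tissue were followed through it. The members were the rows named bta-miR-9-5p, bta-miR-9-3p, bta-miR-124a, bta-miR-124b, bta-miR-128 and bta-miR-137 in the read count tables of 8 libraries. The rule that chose them is their name. All 6 were listed, and all 6 reached 10 reads in at least 1 library, as did 377 of the 565 listed entries. Of these 377 entries, 268 were bovine and the others human. A human entry can repeat the reads of a bovine one, so counts and shares over the 377 are of entries and not of read sets.

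The samples came from 4 ruminally cannulated, non-lactating Holstein cows of about 10 years. Each cow gave 1 sample on day 7 of a forage diet with 0% concentrate and 1 sample on the first day (day 1) at 65% concentrate in a high-grain (HG) diet, to which the cows had been adapted in steps over 1 week, both 4 h after the morning feeding. This gave 4 libraries per diet, numbered 1 to 4 in the labels, and equal numbers were read as the same cow. The diets always followed each other in this order, so diet and sampling date cannot be told apart. Rumen fluid holds feed, microbes and shed host material, and which cells or feed a read came from was not measured. In such a sample, fewer cells of a type and less RNA per cell cannot be told apart.

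A miRNA is cut from a hairpin precursor, and either arm of the hairpin, 5p or 3p, can yield a mature strand that guides a protein complex to partly complementary messenger RNAs and lowers their output. miR-9 and miR-124 are among the best known miRNAs of the vertebrate nervous system, the former in neural progenitors and neurons, the latter in neurons. miR-128 is abundant in brain and is also found in other tissues, and miR-137 is known from neurons and their maturation. The rumen wall is innervated by the enteric nervous system. Presence of these miRNAs in rumen fluid does not by itself name a cell of origin.

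The libraries held 300116 to 522804 miRNA reads, which made up 6.67% to 29.3% of about 1407364 to 4972757 reads in all. HG replicate 2 stood apart from the other libraries in a comparison of library pairs that was added after the data had been seen. Its proportions of bovine miRNAs differed from those of every other library by a chi-square statistic of 43.9 to 57.7 per degree of freedom, against 1.51 to 2.88 among the 21 pairs without it. The values of this library are therefore given beside the comparisons of diets, and the main ones also without it. A table lists an entry from 2 reads upwards, so an entry that is not listed had at most 1 read.

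Before the levels can be read, the sharing of reads between entries has to be known, because the tables count a multi-mapping read at every entry it fits. Bta-miR-124a and bta-miR-124b held the same 3071 reads, with equal reads and equal numbers of distinct sequences in all 8 libraries, and the human entry hsa-miR-124-3p held them as well. The 6 members thus rested on 5 sets of reads, and the values of miR-124a below are also those of miR-124b. Bta-miR-128 shared its 8798 reads with hsa-miR-128-3p. Bta-miR-137 shared its 41 reads with hsa-miR-137-3p. Bta-miR-9-5p held 18836 reads and bta-miR-9-3p 1752 reads, and no other entry had the same reads as either arm in all libraries. In the second count of the tables, in which a read is divided by its number of mappings, the totals were 3769 reads for miR-9-5p, 359 for miR-9-3p, 614 for miR-124a, 2731 for miR-128 and 20.5 for miR-137. Division took the rank of miR-9-5p among bovine entries from 35 to 65, that of miR-128 from 54 to 78 and that of miR-124a from 92 to 120. Reads of miR-9-5p were divided by 5.0 on average although no other listed entry held the same reads, so the division was not among listed entries alone. The order of the 5 read sets was the same in both counts.

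The genomic positions, on build UMD3.1 as the tables list them, name 1 precursor per entry and library, and this precursor varied between libraries for the entries with several copies. For miR-9-5p, 6 libraries listed bta-mir-9-2 (chr7:90554692-90554713, minus strand) and 2 listed bta-mir-9-1 (chr21:21250116-21250137, plus strand). For miR-9-3p, 5 libraries listed bta-mir-9-2 (chr7:90554729-90554745, minus strand) and 3 listed bta-mir-9-1 (chr21:21250155-21250171, plus strand). For miR-124a, 5 libraries listed bta-mir-124a-1 (chr8:9153432-9153454) and 3 listed bta-mir-124a-2 (chr14:30815470-30815492), both on the plus strand. Bta-miR-124b was at chr13:54827596-54827618 on the minus strand in all 8 libraries. Bta-miR-128 was at bta-mir-128-1 (chr2:62007801-62007821, minus strand) in all 8. Bta-miR-137 was at chr3:45448566-45448588 on the plus strand in the 3 libraries that listed it. For bta-mir-9-2 the positions are uncertain, since the 5p arm is listed at the lower coordinates on the minus strand, the reverse of the order in a hairpin, and the listed 3p span on either copy is only 17 bases. Since copies share their mature reads, the listed position does not tell which copy was transcribed. In the RefSeq gene table of another assembly, ARS-UCD2.0, used for neighbours only, MIR128-1 lay within the protein-coding gene R3HDM1 and MIR128-2 within ARPP21. MIR9-2 and MIR124A-1 each lay within a long non-coding RNA gene. MIR9-1, MIR124A-2, MIR124B and MIR137 lay within no other gene of that table.

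The most abundant member was miR-9-5p. Levels are given as reads per 1000000 miRNA reads of the library (RPM). On the forage diet it stood at 5935, 5759, 6014 and 6391 RPM in replicates 1 to 4, and on the HG diet at 6154, 4156, 5699 and 6589. The diets overlapped, and HG replicate 2 was the lowest library while HG replicate 4 was the highest. The means were 6025 ± 266 (SD, n = 4) for forage and 5649 ± 1060 (SD, n = 4) for HG, or 6147 ± 445 (SD, n = 3) without HG replicate 2.

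miR-128 came next. It stood at 2768, 2676, 2655 and 2884 RPM on the forage diet and at 2812, 2255, 2933 and 2873 on the HG diet. HG replicate 2 was again lowest, and the other 7 libraries lay within a 1.10-fold range of each other.

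miR-124a stood at 971, 956, 976 and 1028 RPM on the forage diet and at 990, 634, 975 and 1067 on the HG diet. The other 7 libraries lay within a 1.12-fold range, and HG replicate 2 lay below all of them. The means were 983 ± 31.0 (SD, n = 4) for forage and 916 ± 193 (SD, n = 4) for HG, or 1010 ± 49.3 (SD, n = 3) without HG replicate 2.

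The 3p arm of miR-9 stood at 556, 457, 517 and 747 RPM on the forage diet and at 563, 414, 535 and 611 on the HG diet. Its highest library was forage replicate 4, whose 95% Wilson interval of 660 to 846 lay above the values of all other libraries. These intervals hold counting error alone, because copies made in amplification are not separate molecules.

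miR-137 differed from the other members. It had 2 reads each in forage replicates 2 and 3 and 37 reads in HG replicate 2, and it was not listed in the other 5 libraries. In HG replicate 2 this was 110 RPM, with a 95% Wilson interval of 79.9 to 152.

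**Figure D1:**
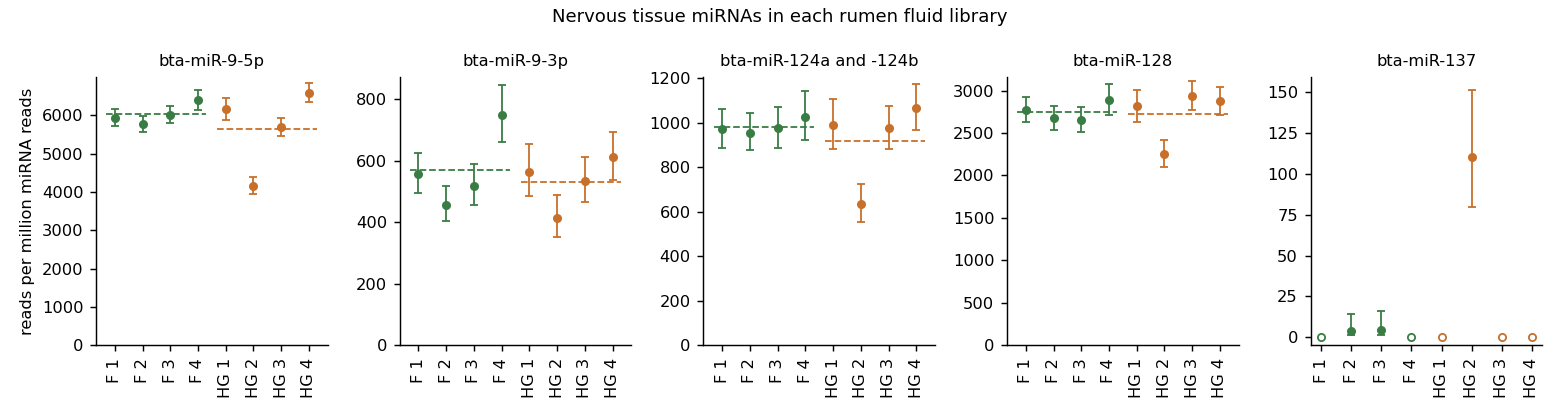
Each panel plots 1 member, or the pair miR-124a and miR-124b with equal reads, in RPM (vertical axis from 0, except that the miR-137 panel starts just below 0) for forage replicates F 1 to F 4 and HG replicates HG 1 to HG 4. Points are libraries, bars are 95% Wilson intervals, dashed lines are diet means (not drawn for miR-137), and open circles are libraries that did not list miR-137. HG 2 is the lowest library in the first 4 panels and the highest in the miR-137 panel.

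In every one of the 8 libraries the order was miR-9-5p, then miR-128, then miR-124a, then miR-9-3p. This is an order of reads, since small RNA libraries do not capture all miRNAs with equal efficiency. The ratio of miR-9-5p to miR-124a reads was 5.85 to 6.56 over the 8 libraries, with a median of 6.17. The ratio of miR-128 to miR-124a was 2.69 to 3.01 in 7 libraries and 3.56 in HG replicate 2. Together the 5 read sets made up 0.985% to 1.11% of miRNA reads in 7 libraries and 0.757% in HG replicate 2.

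The spread between libraries was set against the spread that counting alone gives, as the chi-square of the reads per degree of freedom, for which counting alone gives about 1. Over the 7 libraries without HG replicate 2 this ratio was 0.621 for miR-124a, 1.73 for miR-128, 5.74 for miR-9-3p and 7.0 for miR-9-5p. The ratio grows with depth, so it does not rank the members by their variability. As a coefficient of variation, the spread over these 7 libraries was 3.91% for miR-124a, where counting alone gives 4.95%, and 3.79% for miR-128, where counting gives 2.95%. It was 5.35% for miR-9-5p, where counting gives 2.0%, and 16% for miR-9-3p, where counting gives 6.59%. With HG replicate 2 included, the ratio rose to 6.31 for miR-124a, 5.99 for miR-128, 6.73 for miR-9-3p and 32.5 for miR-9-5p. The coefficient of variation over all 8 libraries was 14% for miR-124a, where counting alone gives 5.10%, and 7.92% for miR-128, where counting gives 3.02%.

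The question of the design was whether miRNAs of rumen fluid changed with the step from forage to grain in the same cows. In edgeR's quasi-likelihood test with cow and diet in the model, 0 of the 6 members passed an adjusted p of 0.05. Over all 377 tested entries 0 passed as well (0% called), the smallest adjusted p was 0.788, and 9 entries had an unadjusted p under 0.05. DESeq2 also called 0 entries, with 3 at an unadjusted p under 0.05. The diet groups did not overlap in RPM for 15 of the 377 entries (3.98% called by that rule), and for 0 of the 6 members.

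The fitted differences, HG over forage on the log2 scale after TMM normalization, were small for the 4 well-covered read sets. For miR-9-5p the difference was −0.06 (SE 0.07, 95% interval −0.24 to 0.11, edgeR adjusted p = 0.830), with a higher level on HG in 2 of 4 cows. For miR-9-3p it was −0.04 (SE 0.09, interval −0.28 to 0.19, edgeR adjusted p = 0.880), with a higher level in 3 of 4 cows. For miR-124a it was −0.08 (SE 0.10, interval −0.33 to 0.17, edgeR adjusted p = 0.830), higher in 2 of 4 cows. For miR-128 it was 0.03 (SE 0.06, interval −0.11 to 0.17, edgeR adjusted p = 0.880), higher in 3 of 4 cows. Differences of either sign within these intervals cannot be told from none with 4 cows. No fold is given for miR-137, whose reads on the HG diet were all in 1 library (edgeR adjusted p = 0.788, higher in 1 of 4 cows). Without replicate 2 of both diets the differences of miR-9-5p and miR-124a turned to 0.0065 and 0.027, and those of miR-9-3p and miR-128 moved to −0.080 and 0.057. That of miR-9-3p turned to 0.037 without replicate 4 and that of miR-128 to −0.025 without replicate 3. None of these was called, so the sign of all 4 differences rests on single cows.

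The arms of miR-9 were compared within each library, a measure that does not depend on the library total. The 5p arm gave 91.4%, 92.6%, 92.1% and 89.5% of the reads of both arms on the forage diet and 91.6%, 91.0%, 91.4% and 91.5% on the HG diet. The 4 HG libraries lay inside the range of the forage libraries. HG replicate 2, which stood apart in level, did not stand apart in arm use. The share was 91.4% ± 1.35 (SD, n = 4) for forage and 91.4% ± 0.295 (SD, n = 4) for HG. The mean difference of HG minus forage was −0.0444 percentage points (exact paired permutation test, two-sided, p = 1, where the smallest p that 4 pairs allow is 1 in 8), with a higher share on HG in 2 of 4 cows. Its sign turned with divided reads (0.362), without replicate 2 (0.506) and without replicate 3 (0.160). The lowest library was forage replicate 4 (95% Wilson interval 88.2% to 90.7%) and the highest forage replicate 2 (91.7% to 93.5%), with 8.55 and 12.6 reads of the 5p arm per read of the 3p arm.

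**Figure D2:**
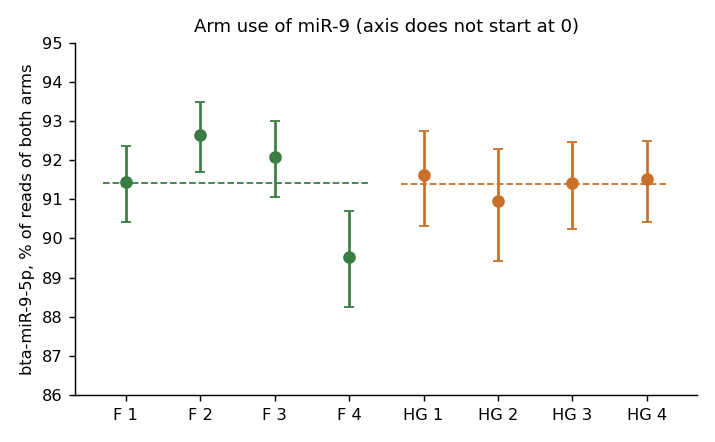
Share of bta-miR-9-5p in the reads of both miR-9 arms, in percent (vertical axis, which does not start at 0), for the 4 forage (F) and 4 HG libraries. Points are libraries, bars are 95% Wilson intervals and dashed lines are diet means. The shares run from 89.5% in F 4 to 92.6% in F 2, with the HG libraries between them.

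HG replicate 2 was set against the other 7 libraries, a comparison chosen after the values had been seen. In RPM it lay below all 7 for 5 of the 6 members, which are 4 sets of reads, and above all 7 for 1 member. Over all 377 entries 186 lay below all 7 (49.3% called) and 101 lay above (26.8% called), so most entries of this library lay outside the others. The log2 ratio to the mean of the 7 was −0.65 for miR-124a, −0.55 for miR-9-5p, −0.46 for miR-9-3p and −0.31 for miR-128, against a median of −0.21 over all entries. Among the 179 entries with at least 1000 reads in all, 3 had a lower ratio than miR-124a, 14 a lower one than miR-9-5p and 52 a lower one than miR-128. Human entries that repeat the reads of a bovine entry are counted separately here, so these are places among entries and not among read sets. After TMM normalization, which brought the median of all entries to −0.01, the log2 ratios were −0.44 for miR-124a, −0.34 for miR-9-5p, −0.26 for miR-9-3p and −0.11 for miR-128. On that scale 4 of the 6 members lay below all 7 other libraries (30.5% called over all entries), because miR-9-3p at 309 CPM no longer lay below forage replicate 2 at 299 CPM. miR-137 lay above all 7 on that scale too (35.5% called over all entries).

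**Figure D3:**
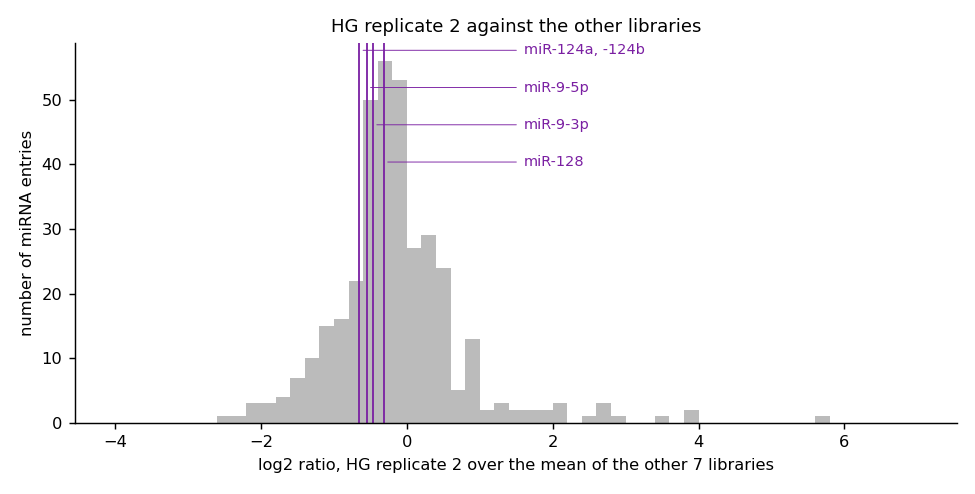
Histogram of the log2 ratio of HG replicate 2 to the mean of the other 7 libraries, in RPM (horizontal axis), over the 362 tested miRNA entries with at least 10 reads in those 7 libraries and reads in HG replicate 2 (vertical axis, number of entries). Purple lines mark the members, with miR-124a at −0.65, miR-9-5p at −0.55, miR-9-3p at −0.46 and miR-128 at −0.31. miR-137, with 4 reads in the 7 libraries, is not drawn.

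Summed marker lists of other cell types also lay outside the other libraries in HG replicate 2. As shares of miRNA reads, 3 erythrocyte miRNAs (bta-miR-451, bta-miR-144 and bta-miR-486) stood at 15% against 19.8% to 20.6% in the other 7 libraries. The leukocyte list (4 of 4 members detected) stood at 1.70% against 2.13% to 2.18%, and the striated muscle list (3 of 4, with bta-miR-206 under 10 reads) at 0.50% against 0.643% to 0.762%. The epithelial list (miR-200a, miR-200b, miR-200c, miR-141 and miR-205, 5 of 5) stood at 2.67% against 1.94% to 2.03%, and the smooth muscle list of bta-miR-143 and bta-miR-145 (2 of 2) at 8.36% against 5.96% to 6.46%. Within several lists the members differed in direction in RPM, a scale on which the median log2 ratio of all entries was −0.21. The lists were not repeated after TMM normalization, where entries near the edge of the range, such as miR-200b and miR-200c, can change side. All 3 erythrocyte miRNAs lay below the other 7 libraries and both smooth muscle entries above them, while the human entry of the other miR-145 arm, hsa-miR-145-3p, lay below (390 RPM against 505 to 557). Of the epithelial list, miR-200a, miR-141 and miR-205 lay above, miR-200b below and miR-200c inside the range of the others. Of the leukocyte list 3 lay below and miR-142-3p above (1238 RPM against 966 to 1106), and of the striated muscle list miR-1 and miR-133a lay below and miR-499 above (357 RPM against 255 to 279). The part of these lists in the values of the nervous tissue miRNAs was not tested.

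**Figure D4:**
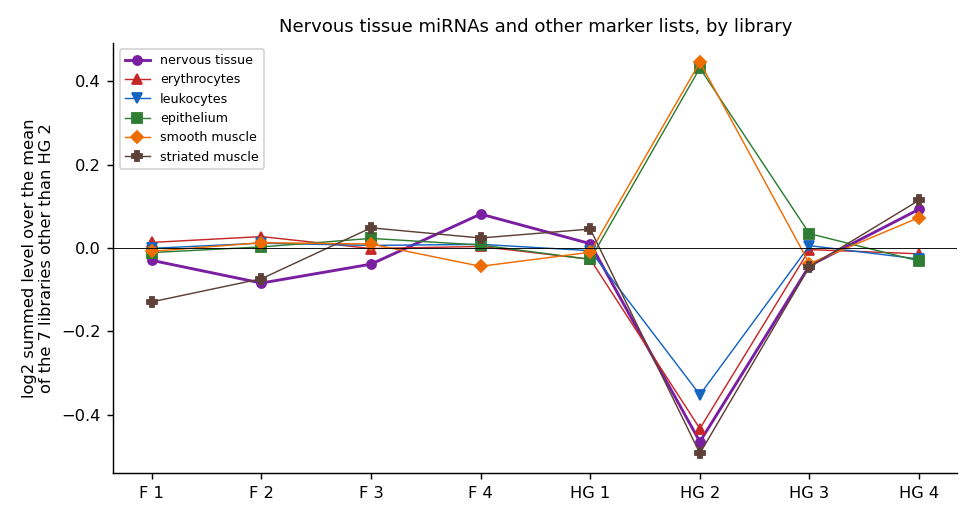
Summed level of each marker list in each library, as the log2 ratio to its mean over the 7 libraries other than HG 2 (vertical axis), for forage (F) and HG libraries on the horizontal axis. Each line is 1 list, joined for legibility only. In HG 2 the nervous tissue list (−0.46) lies with erythrocytes (−0.43), leukocytes (−0.35) and striated muscle (−0.49), while epithelium (0.43) and smooth muscle (0.45) lie above the other libraries.

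The reads of miR-137 in HG replicate 2 differed from those of the other members in a further respect. Its 37 reads were of 1 distinct sequence, and so were the 2 reads in each forage library that listed it. The tables counted 27 to 45 distinct sequences per library for miR-9-5p, 22 to 33 for miR-128, 17 to 26 for miR-124a and 4 to 7 for miR-9-3p. Among 40 other entries with 25 to 55 reads in HG replicate 2, the number of distinct sequences was 1 to 10 with a median of 4, and 2 of them (bta-miR-11992 and bta-miR-455-5p) also had 1. The window of 25 to 55 reads was chosen after the reads of miR-137 were known. Without HG replicate 2 the member rested on 4 reads in all, and no statement about it can be made.

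The choice of denominator changed the picture of single libraries. Relative to all reads of the library in place of its miRNA reads, miR-9-5p ranged from 358 to 1739 reads in 1000000, a 4.85-fold range over the 8 libraries, against a 1.59-fold range in RPM of miRNA reads. miR-124a ranged from 54.6 to 285, a 5.21-fold range against 1.68-fold. On this scale the libraries with the highest shares of miRNA reads, forage replicate 1 at 29.3% and HG replicate 3 at 27.8%, were the highest of their diets for miR-9-5p, miR-128, miR-124a and miR-9-3p. A level relative to all reads is the RPM of miRNA reads times the share of reads that were miRNA. That it moved with this share therefore follows from the arithmetic, since the RPM varied less than the share.

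**Figure D5:**
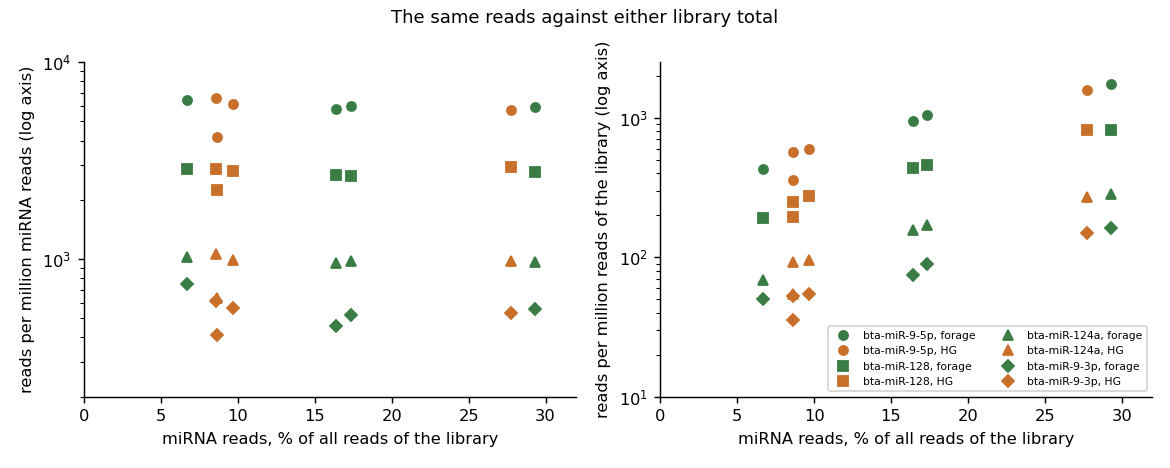
Members' levels in RPM of miRNA reads (left, log axis) and in RPM of all reads (right, log axis) against the share of miRNA reads in the library, in percent (horizontal axis), for 4 forage (green) and 4 HG (orange) libraries. Marker shapes are members. On the left the levels of miR-9-5p lie between 4156 and 6589 over all miRNA shares, and on the right they run from 358 to 1739.

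Other miRNAs known from the nervous system were read from a list of 16 families (miR-7, miR-129, miR-132, miR-134, miR-135, miR-138, miR-139, miR-153, miR-212, miR-218, miR-219, miR-323, miR-326, miR-338, miR-383 and miR-488). All 16 families had a listed bovine entry, 19 entries in all, and 10 entries of 9 families reached 10 reads in a library. In the diet test 0 of these 10 passed (0% called over all entries), with 4 fitted differences above 0 and 6 below, and a median of −0.10 against 0.03 over all entries. The highest fitted log2 differences were 0.35 (SE 0.24) for miR-218, which is known from motor neurons, 0.21 (SE 0.17) for miR-7 and 0.20 (SE 0.25) for miR-323. The lowest were −0.71 (SE 0.32) for miR-219-3p, −0.64 (SE 0.31) for miR-132 and −0.42 (SE 0.32) for miR-135a. These lowest entries held only 103, 151 and 176 reads over the 8 libraries, in that order. The hairpin of miR-219-3p is known from oligodendrocytes, and miR-132 is induced by neuronal activity. Several of these fitted differences rested on HG replicate 2. Bta-miR-218 stood at 387 RPM in that library against 183 to 241 in the other 7, and bta-miR-7 at 940 against 652 to 871. Without replicate 2 of both diets the log2 differences were 0.05 for miR-218, 0.03 for miR-7, 0.18 for miR-323, −0.57 for miR-219-3p, −0.55 for miR-132 and −0.63 for miR-135a, and the list had 6 differences above 0 and 4 below, with a median of 0.03 (0.0043 over all entries). With HG replicate 2 alone left out and no cow block, 5 lay above 0 and 5 below, with a median of −0.03, so the sign of the median depends on the fit. None of the 10 was called in either fit. Other cows moved these differences too, with miR-135a at −0.11 without replicate 4, miR-323 at 0.10 without replicate 1 and 0.35 without replicate 3, and miR-7 at 0.38 without replicate 1. Bta-miR-219-3p, picked as the lowest of the 10, stood at 38.7 ± 2.82 RPM (SD, n = 4) for forage and 23.4 ± 9.60 (SD, n = 4) for HG. Without HG replicate 2 the HG mean was 26.2 ± 9.48 (SD, n = 3). It was lower on HG in all 4 cows (edgeR adjusted p = 0.788), on few reads. How many of all entries were lower in all 4 cows was not counted. In RPM, HG replicate 2 lay below all 7 other libraries for 4 of the 10 entries and above them for 3, against 49.3% and 26.8% of all entries. Bta-miR-219-3p lay below by little, at 14.9 RPM against 15.5 in the lowest other library. This count was not repeated after TMM normalization.

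Finally, the bovine entries most like the members over the 8 libraries were found among 120 candidates of at least 1000 reads, by the root mean square difference of log2 CPM deviations. For miR-9-5p these were bta-miR-107 (0.045), bta-miR-1 (0.052) and bta-miR-182 (0.068), against a median of 0.18 over the candidates. For miR-124a they were bta-miR-107 (0.063), bta-miR-1 (0.066) and bta-miR-2285bc (0.074), against a median of 0.21. For miR-128 they were bta-miR-16b (0.039), bta-miR-93 (0.041) and bta-miR-144 (0.042), against a median of 0.13. The order changed when HG replicate 2 was left out. Without it the 3 entries ranked 6, 10 and 25 for miR-9-5p, 29, 33 and 71 for miR-124a and 3, 11 and 5 for miR-128, in the order given.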

How the data were processed

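Small RNA of rumen fluid was sequenced as 4 libraries per diet. The authors demultiplexed reads with bcl2fastq 2.20, trimmed adapters with Skewer, discarded short and low-quality reads and assigned the rest with sRNAbench and Bowtie to UMD3.1 and to bovine and human miRBase entries. Each deposited table holds a read count per mature miRNA entry, in which a multi-mapping read counts in full at each entry, a count of distinct sequences, and an expected count that divides such a read by its mappings. The deposited RPM relative to all reads, and a deposited score of RPM relative to miRNA reads, were used to recover both library totals. The authors' table of normalized values was not used.

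Entries that reached 10 reads in any library entered edgeR 4.0.16 under R 4.3.3 (TMM, glmQLFit and glmQLFTest, two-sided, cow and diet in the model, Benjamini-Hochberg adjustment over all 377 entries). DESeq2 1.42.0 was an alternative, with expected counts rounded to whole numbers in another. Fold changes of the fit are on the log2 scale. The arm share of miR-9 was tested by an exact paired permutation test with scipy 1.17.1 in Python 3.11.15 (numpy 2.4.6, pandas 2.3.3). The edgeR fit was tested on simulated data and the permutation test on a worked case of known p. Libraries of 1 number were paired because the same cows gave both diets and the labels number them alike. Across 179 entries of at least 1000 reads, deviations of same-numbered libraries correlated at −0.03 to 0.11 and those of other pairs at −0.16 to 0.11, so the pairing rests on the labels. No pair of libraries agreed within sampling noise, although reads counted at several entries raise these statistics. P-values of the main diet fit and of the arm test rest on how the difference between diets varied over 4 cows, with 1 library per diet each.

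The members, the marker lists and the list of neural families were chosen with earlier results of these data known. Named are the 6 members and their human entries, the 3 nearest entries to miR-9-5p, miR-124a and miR-128, and the 3 highest and 3 lowest fitted differences among the neural families. The chi-square comparison of library pairs was added after the data had been seen. So were the comparison of HG replicate 2 with the other libraries and its repeat on TMM-normalized CPM. Also added then were the alternatives for the neural families, the spread ratios and the count of entries whose diets do not overlap. The same holds for the ratios between members and the counts of distinct sequences. No mature miRNA sequences were used here, nor were the papillae libraries.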

Additional observations from a re-analysis of the deposited data

Results flagged for a closer look

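Among 28 groups of 4 libraries scanned for a library far from the others of its diet, 4 held one. Chance gives about 1 in 20 for independent groups, which these are not, since the 4 cases are 2 entries of HG replicate 3 on 1 scale and miR-137 of HG replicate 2 on both scales. In HG replicate 2, bta-miR-137 stood at 110 RPM of miRNA reads and at 9.49 RPM of all reads, while the other HG libraries did not list it. The gap to them was the whole range of the group on both scales. In HG replicate 3, bta-miR-9-3p stood at 149 RPM of all reads, with 0.832 of the group's range as its gap, and bta-miR-128 stood at 814 RPM of all reads, with a gap of 0.874 of the range. That library had the highest share of miRNA reads on the HG diet (27.8%). Relative to miRNA reads, HG replicate 3 did not stand apart for either entry.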

How the results depend on the processing

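In all 12 alternatives of the diet test 0 members were called, and the smallest adjusted p among members was 0.678 to 0.999. Over all entries 0 were called in 11 of the 12. With each replicate number left out in turn the count was 0 to 2, and the 2 entries, without replicate 2, were bta-miR-2285ak-5p and bta-miR-2285bh (edgeR adjusted p = 0.00433), whose 88 shared reads lay in forage replicate 1. With no replicate block the count was 0 and the log2 difference of miR-9-5p was −0.05, and the block changed no call. With no replicate block and without HG replicate 2 the log2 differences of miR-9-5p, miR-9-3p and miR-124a turned to 0.031, 0.026 and 0.043. That of miR-128 turned to −0.021 when scaled by total miRNA reads. With each replicate number left out in turn, the log2 differences ran from −0.10 to 0.0065 for miR-9-5p, −0.090 to 0.037 for miR-9-3p, −0.12 to 0.027 for miR-124a and −0.025 to 0.057 for miR-128. The difference in the 5p share of miR-9 turned to 0.362 percentage points with divided reads (exact permutation p = 0.875), and it ran from −0.721 to 0.506 with 1 cow left out, with a value of 0.160 without replicate 3. The cause of these turns was not tested, and none of the turned values passed a threshold. Shares of miRNA reads moved beyond 1 SD for the 4 well-covered read sets when reads were divided or set against all reads, as both settings change the quantity itself. With 300116 to 522804 miRNA reads, the depth limits miR-137 most and miR-9-5p least.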
